A study of Mus musculus with 36 samples.

Results

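The genes described here encode the enzymes that make sterols and fatty acids in mouse cells, with the proteins that regulate sterol synthesis and export sterols. The set was given as 33 gene symbols: 18 sterol enzymes, 9 fatty acid enzymes, 4 regulators and carriers (Srebf1, Srebf2, Insig1 and Stard4) and the 2 lipid exporters Abca1 and Abcg1. A member was kept if a probe whose accession maps to its symbol passed the scanner's test against background on 3 or more of the 4 arrays in some group. This left 31 of the 33 among 32492 gene names tested: 17 sterol enzymes, all 9 fatty acid enzymes, all 4 regulators and carriers, and Abca1. Acat2, the cytosolic thiolase, had no probe matched to its symbol, and the probe of Abcg1 was well above background on 0 of the 36 arrays. The probe used for each of the 31 measured members was well above background on all 36 arrays.

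The cells were Bhas 42 cells, a mouse line derived from BALB/c 3T3 fibroblasts that was transfected with the v-Ha-ras oncogene and serves in assays of cell transformation, so all 9 groups share that oncogene and 1 cell line. Treatment began on day 4 after seeding and the cells were collected on day 6, after 48 h. The amorphous silica NM-203 was given at 1, 2 and 5 µg/cm² and diatomaceous earth (DE) at 5 µg/cm², and these 4 groups share 1 control given water at 2%. The crystalline silica Min-U-Sil 5 was given at 20 µg/cm² and has a water control of its own, also at 2%. The phorbol ester TPA, which activates protein kinase C, was given at 0.05 µg/ml and is set against its solvent DMSO at 0.1%. Each group held 4 arrays. The labels do not say which arrays came from separate cultures, so the p-values measure only the spread between these samples.

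Cells build sterols from acetyl-CoA through mevalonate, isoprenoid diphosphates, squalene and lanosterol, and they build saturated fatty acids from acetyl-CoA and malonyl-CoA before elongases and desaturases modify them. When sterols in the endoplasmic reticulum fall, the transcription factors SREBP-2 and SREBP-1, products of Srebf2 and Srebf1, are released from the membrane and switch on both sets of genes; SREBP-2 acts mainly on sterol enzymes and SREBP-1c mainly on fatty acid enzymes. The protein of Insig1 holds the SREBP precursors back when sterols are plentiful, and the LXR nuclear receptors induce Abca1 when oxidised sterols build up.

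The promoters of 6 sterol enzymes called higher at NM-203 2 µg/cm² are shown first, then those of Tm7sf2, Acss2 and Fads2, the members with the largest changes among sterol and fatty acid enzymes at 5 µg/cm². They are RefSeq sequences on the build GRCm38.p6, read 5′ to 3′ on the strand of the gene and ending at the base before the annotated start. Capitals mark TCACNCCAC, the core of a sterol regulatory element, and CCAAT, the box bound by the factor NF-Y, found on either strand, so that ATTGG marks CCAAT on the other strand.
Hmgcs1, chr13:119690201-119690350, plus strand: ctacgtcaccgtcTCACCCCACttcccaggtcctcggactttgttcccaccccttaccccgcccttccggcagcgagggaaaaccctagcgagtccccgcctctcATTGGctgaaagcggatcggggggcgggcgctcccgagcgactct
Mvk, chr5:114444169-114444268, plus strand: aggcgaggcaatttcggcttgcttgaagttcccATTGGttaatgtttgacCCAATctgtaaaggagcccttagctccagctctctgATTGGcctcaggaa
Idi1, chr13:8885506-8885605, plus strand: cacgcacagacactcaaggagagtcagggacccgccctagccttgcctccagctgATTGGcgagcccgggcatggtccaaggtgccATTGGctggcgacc
Lss, chr10:76531505-76531604, plus strand: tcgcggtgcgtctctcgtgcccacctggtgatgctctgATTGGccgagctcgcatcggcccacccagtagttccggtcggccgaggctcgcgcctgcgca
Msmo1, chr8:64733579-64733678, minus strand: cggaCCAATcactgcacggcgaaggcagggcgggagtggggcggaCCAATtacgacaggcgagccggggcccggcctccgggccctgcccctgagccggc
Nsdhl, chrX:72918421-72918520, plus strand: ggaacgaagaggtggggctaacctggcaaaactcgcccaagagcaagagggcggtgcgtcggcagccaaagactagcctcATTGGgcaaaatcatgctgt
Tm7sf2, chr19:6067851-6067950, minus strand: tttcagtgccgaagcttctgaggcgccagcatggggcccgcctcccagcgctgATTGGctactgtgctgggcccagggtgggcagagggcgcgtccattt
Acss2, chr2:155517943-155518042, plus strand: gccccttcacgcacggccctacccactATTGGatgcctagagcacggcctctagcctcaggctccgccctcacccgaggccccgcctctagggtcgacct
Fads2, chr19:10101504-10101603, minus strand: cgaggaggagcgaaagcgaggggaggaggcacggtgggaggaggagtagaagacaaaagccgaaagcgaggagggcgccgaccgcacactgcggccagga

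Promoter entries were found for 25 of the 33 members. In the 250 bases before a start, CCAAT stood in 14 of 15 sterol enzyme promoters, 2 of 6 fatty acid enzyme promoters (Acss2 and Fasn) and 3 of 3 regulator promoters, against 37.5% of 27025 genes. In the nearest 100 bases it stood in 13 of 15 sterol enzymes, against 21.6% of genes. TCACNCCAC was found only in Hmgcs1 among the members, 137 to 129 bases before the start, and in 1.22% of genes. CACGTG, a palindromic E-box, stood in Dhcr7, Hsd17b7, Sc5d, Insig1 and Abca1, and in 6.86% of genes. The half-site AGGTCA repeated with a spacer of 4 bases, the kind of repeat LXR binds, stood in 0 members and in 0.0148% of genes. All 4 motifs were searched on both strands, and none contains another. The Tm7sf2 promoter has its CCAAT match 47 to 43 bases before the start, close to matches at 45 to 41 bases in Hmgcs1 and Idi1 and 55 to 51 bases in Msmo1. The Acss2 promoter has one 73 to 69 bases before the start, and the 250 bases of Fads2 have no match to the 4 motifs. A match describes these letters only.

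Levels below are log2 intensities relative to the array's 75th percentile, so a level of 0 lies at that percentile, and levels of different probes are not compared. A change is the difference of 2 group means on that log2 scale, ± its standard error (SE) from the limma fit. A gene is called when its adjusted p is under 0.05. Between 55.1% and 76.2% of probes per array were well above background, and replicate arrays correlated at 0.953 to 0.993 across genes. The arrays lay on 5 slides scanned on 2 days, with the NM-203 2 µg/cm², Min-U-Sil 5 and matching water arrays all in the later session and the TPA, DMSO, DE and other water arrays all in the earlier one. All 10 fibroblast markers were measured. Their summed level (linear, relative to the percentile) was 451 to 606 at NM-203 5 µg/cm², against 701 to 819 in water, and 501 to 571 in Min-U-Sil 5, against 695 to 942 in its water. In these bulk cultures fewer cells of a type and less RNA per cell cannot be told apart. Of the 7 adipocyte markers 5 were measured, Adipoq and Cfd were not, and the summed level lay between 1.49 and 3.61 on all arrays. Of the 8 macrophage markers Ptprc, the pan-leukocyte gene, was not measured, and the sum of the other 7 lay between 10.7 and 29.5.

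The sterol enzymes tended to be higher after treatment than in the controls, and the fatty acid enzymes less so. The median change of the 17 sterol enzymes was 0.26 at NM-203 1 µg/cm², 0.55 at 2 µg/cm² and 0.13 at 5 µg/cm², 0.33 with DE, 0.27 with Min-U-Sil 5 and 0.55 with TPA. The median of the 9 fatty acid enzymes was 0.15, 0.30 and -0.07 at the 3 NM-203 doses, 0.15 with DE, 0.16 with Min-U-Sil 5 and 0.28 with TPA. Over all genes tested the medians of these 6 comparisons ran from -0.04 (TPA) to 0.11 (NM-203 2 µg/cm²). A single gene, Fdps, the farnesyl diphosphate synthase at the fork between sterols and other isoprenoids, was called higher in 4 of the 6 comparisons. The 4 comparisons against water share their control arrays.

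**Figure D1:**
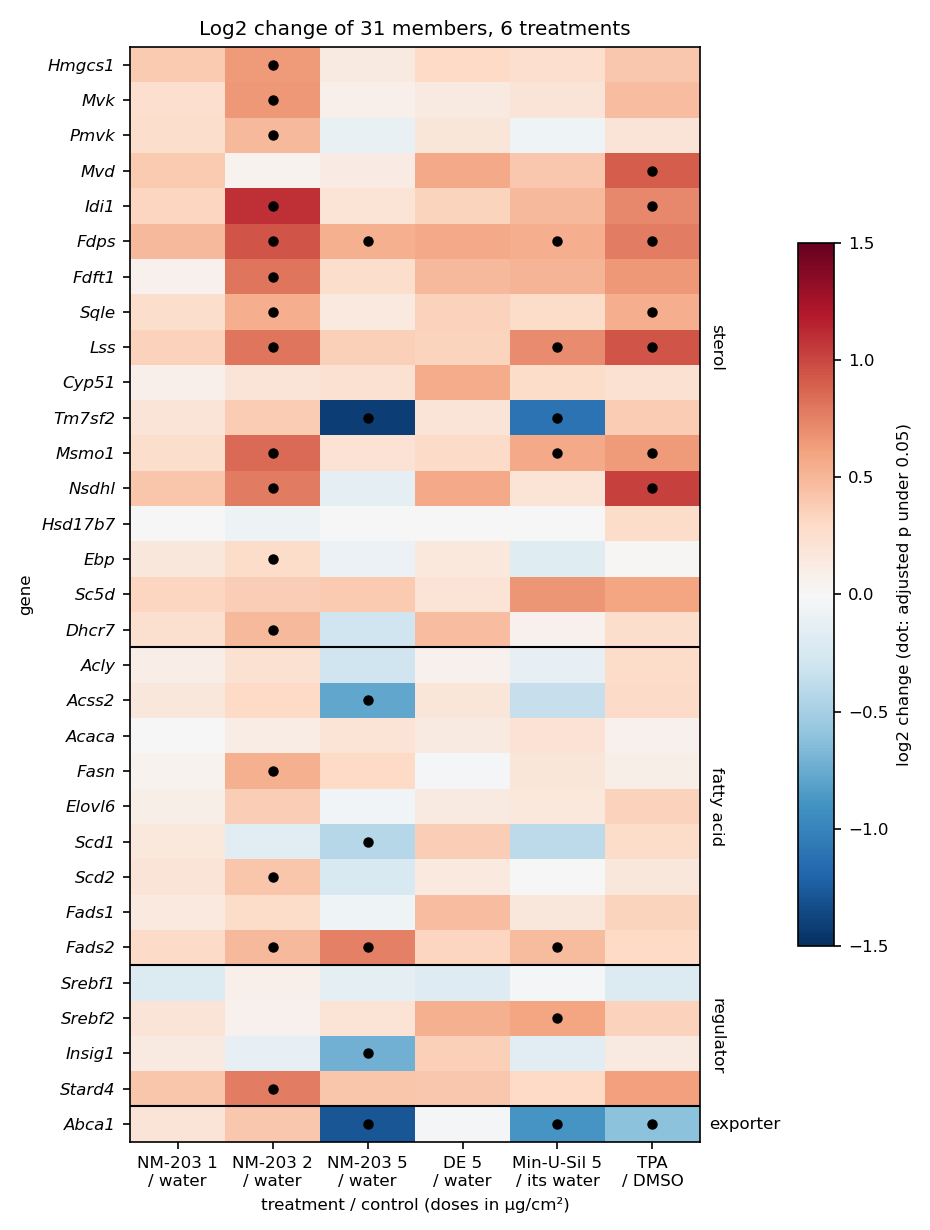
Log2 change of the 31 measured members (rows, by class) in 6 treatments, each against its control (columns); red is higher and blue is lower after treatment, and a dot marks an adjusted p under 0.05. The NM-203 2 µg/cm² and TPA columns hold 12 and 7 called sterol enzymes, and Tm7sf2 and Abca1 are the deepest blue cells at NM-203 5 µg/cm² (-1.41 and -1.28).

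At the lowest dose, NM-203 1 µg/cm², 0 of 31 members were called, where limma called 0.0862% of all genes. The changes were positive for 30 of 31 members, all 17 sterol and all 9 fatty acid enzymes among them, and 3 sterol enzymes had an unadjusted p under 0.05. Fdps had 5.53, 5.09, 4.69 and 4.94 in NM-203 arrays, against 4.94, 4.72, 4.24 and 4.39 in water arrays (change 0.49 ± 0.18, adjusted p = 0.543). Hmgcs1, a cytosolic synthase of the mevalonate pathway, had 4.49, 4.14, 3.94 and 4.14 in NM-203 arrays, against 3.97, 3.98, 3.45 and 3.76 in water arrays (0.39 ± 0.15, adjusted p = 0.556). The groups overlapped for both genes. Nsdhl, a dehydrogenase of sterol C4 demethylation, had 1.46, 1.17, 0.70 and 0.85 in NM-203 arrays, against 0.99, 0.70, 0.52 and 0.31 in water arrays (0.42 ± 0.19, adjusted p = 0.819). Stard4, a cytosolic sterol carrier, had 1.81, 1.02, 1.07 and 1.01 in NM-203 arrays, against 1.2, 0.97, 0.49 and 0.58 in water arrays (0.42 ± 0.22, adjusted p = 0.935). These groups overlapped too, and replicate 1 was the highest NM-203 array for all 4 genes. Within slides the median sterol change was 0.09 on slide 1, 0.50 on slide 2 and 0.55 on slide 3, and the median fatty acid change 0.15, 0.30 and 0.25. Each of these slides held 1 array of this NM-203 group, beside 1, 2 and 1 water arrays.

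At NM-203 2 µg/cm² 16 of 31 members rose and 0 fell, where 16.2% of all genes were called higher: 12 of 17 sterol enzymes, 3 of 9 fatty acid enzymes and Stard4. They covered most of the path from Hmgcs1 to Dhcr7, and the sterol enzymes that were not called were Mvd (change 0.05), Cyp51 (0.19), Tm7sf2 (0.38), Hsd17b7 (-0.08) and Sc5d (0.37). Scan day and this group cannot be told apart against water, since its arrays belong to the later scan day, those of water to the earlier one, and they share no slide. Against the water control of Min-U-Sil 5, scanned on the second day, 2 members were called, Fdps (0.67, adjusted p = 0.0134) and Lss (0.70, adjusted p = 0.047). Against that control the changes were positive for 15 of 17 sterol enzymes (median 0.34) and 9 of 9 fatty acid enzymes (median 0.21). The medians were 0.55 and 0.30 against water, 0.65 and 0.44 with scan day in the fit, and 0.78 and 0.54 with the slide. The scan day term rests on replicate 4 of NM-203 1 µg/cm² and replicate 1 of NM-203 5 µg/cm². These were scanned later than the rest of their groups. With scan day in the fit 4 members were called (Hmgcs1, Fdps, Lss and Msmo1), with the slide in the fit 9, and without replicate 1 of this group 9. Of all 32492 genes 8125 were called against water and 5061 against the water of Min-U-Sil 5. The counts were 1716 with scan day in the fit, 2328 with the slide and 7420 without replicate 1.

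**Figure D2:**
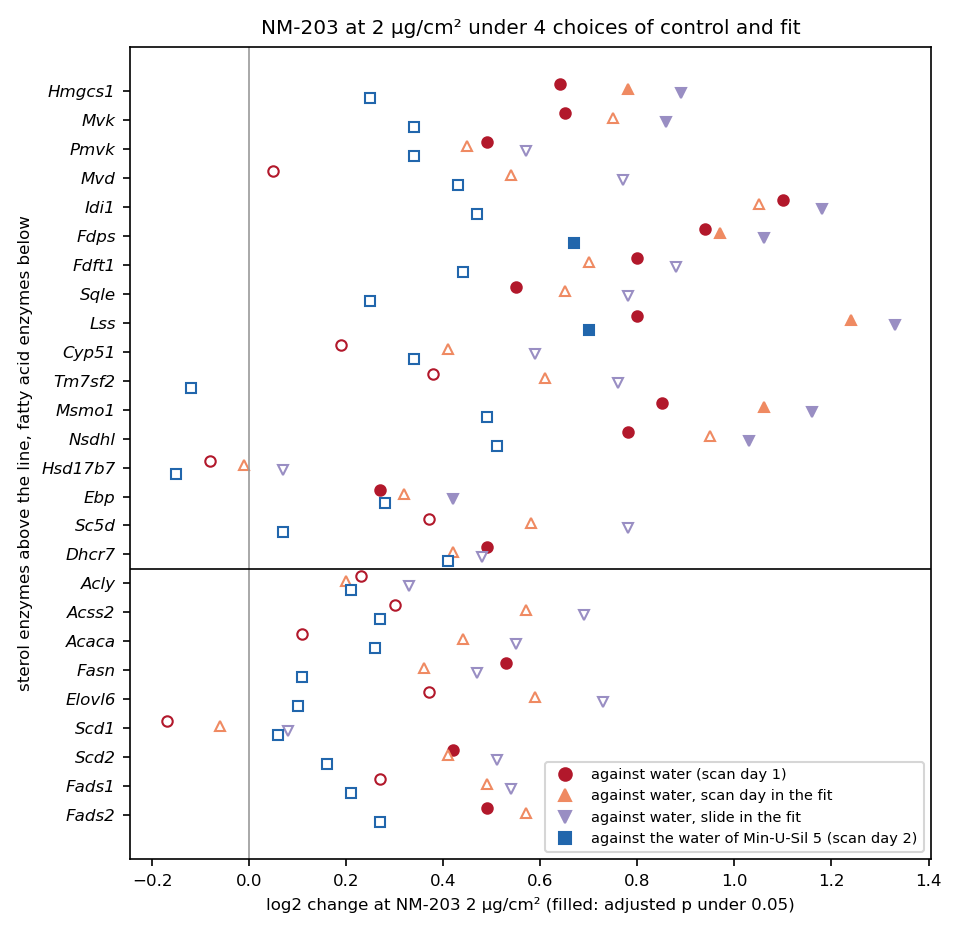
Log2 change of the sterol enzymes (above the line) and fatty acid enzymes (below it) at NM-203 2 µg/cm²: against water (red circles), against water with scan day (orange triangles) or slide (purple triangles) in the fit, and against the water of Min-U-Sil 5 (blue squares); filled symbols have an adjusted p under 0.05. Fdps and Lss are filled under all 4 choices, and most blue squares lie left of the red circles.

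The early mevalonate steps were among the members called at 2 µg/cm². Hmgcs1 had 4.86, 4.25, 4.31 and 4.27 in NM-203 arrays, against 3.97, 3.98, 3.45 and 3.76 in water arrays, a 1.55-fold rise (change 0.64 ± 0.15, adjusted p = 0.00192). Mvk, mevalonate kinase, had 4.36, 4.18, 3.96 and 3.66 in NM-203 arrays, against 3.68, 3.49, 3.22 and 3.19 in water arrays (0.65 ± 0.17, adjusted p = 0.00455). The Hmgcs1 groups did not overlap, and the lowest NM-203 array of Mvk lay just under the highest water array. Idi1, the isomerase that makes the allylic isoprenoid unit, had 3.30, 2.86, 2.39 and 2.14 in NM-203 arrays, against 1.96, 1.72, 1.11 and 1.51 in water arrays, a 2.14-fold rise (1.1 ± 0.23, adjusted p = 0.000646). Fdps had 5.91, 5.65, 5.07 and 5.42 in NM-203 arrays, against 4.94, 4.72, 4.24 and 4.39 in water arrays, a 1.92-fold rise (0.94 ± 0.18, adjusted p = 0.00033). All 4 NM-203 arrays lay above all 4 water arrays for both. Pmvk, phosphomevalonate kinase, also rose (0.49, adjusted p = 0.0229). Against the other water control the change of Idi1 was 0.47 (adjusted p = 0.162) and that of Hmgcs1 was 0.25 (adjusted p = 0.249), and over all alternatives the adjusted p ran from 0.000181 to 0.162 for Idi1 and from 0.00136 to 0.249 for Hmgcs1. The call of Fdps was kept under all 21 alternatives.

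The squalene and later sterol steps followed. Fdft1, squalene synthase, had 3.51, 2.79, 2.69 and 3.20 in NM-203 arrays, against 2.64, 2.38, 1.97 and 2.01 in water arrays (0.80 ± 0.22, adjusted p = 0.00888), with no overlap. Lss, lanosterol synthase, had 3.01, 2.81, 2.13 and 2.21 in NM-203 arrays, against 2.16, 1.82, 1.52 and 1.48 in water arrays (0.80 ± 0.24, adjusted p = 0.0146). For Lss the lowest NM-203 array fell just below the highest water array. Msmo1, the C4 methyl oxidase, had 5.11, 4.74, 4.31 and 4.37 in NM-203 arrays, against 4.13, 3.92, 3.45 and 3.63 in water arrays, a 1.80-fold rise (0.85 ± 0.19, adjusted p = 0.00104). Nsdhl had 1.96, 1.44, 1.01 and 1.21 in NM-203 arrays, against 0.99, 0.70, 0.52 and 0.31 in water arrays, a 1.72-fold rise (0.78 ± 0.19, adjusted p = 0.00351). The groups of Msmo1 and Nsdhl did not overlap. Against the other water control their changes were 0.49 (adjusted p = 0.0697) and 0.51 (adjusted p = 0.0721), within ranges over the alternatives of 0.000648 to 0.0697 for Msmo1 and 0.00143 to 0.079 for Nsdhl. Sqle (0.55), Dhcr7 (0.49) and Ebp (0.27) were the other called sterol enzymes, and Pmvk is given above. Second probes were not called for Mvk (0.30, adjusted p over all probes 0.264), Msmo1 (0.47, 0.19), Fdft1 (-0.41, 0.57) and Ebp (-0.01, 0.968), nor was another probe of Lss (0.40, 0.192), so the probes of these genes disagree on the call. The second Hsd17b7 probe was called lower (-0.63, adjusted p over all probes 0.0017), so the absence of falls holds for the probes used and not for every probe.

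Among the fatty acid enzymes at 2 µg/cm², Fasn, the fatty acid synthase, had 4.80, 4.21, 4.41 and 4.39 in NM-203 arrays, against 3.99, 4.04, 3.79 and 3.86 in water arrays (0.53 ± 0.13, adjusted p = 0.00319). Scd2, a desaturase that makes monounsaturated fatty acids, had 5.65, 5.23, 5.16 and 5.26 in NM-203 arrays, against 5.11, 5.01, 4.68 and 4.81 in water arrays (0.42 ± 0.12, adjusted p = 0.00909). Fads2, the first desaturase of polyunsaturated fatty acid synthesis, had 0.49, 0.01, 0.00 and -0.04 in NM-203 arrays, against -0.32, -0.18, -0.50 and -0.50 in water arrays (0.49 ± 0.15, adjusted p = 0.0157). None of these 3 pairs of groups overlapped. Against the other water control their changes were 0.11, 0.16 and 0.27, none of them called. The second Fads2 probe was not called (0.36, adjusted p over all probes 0.241), and other probes of Acly (-0.49, 0.0334) and Acaca (-0.83, 0.0363), whose probes used were not called, were called lower. Among the regulators and carriers only Stard4 rose, with 1.90, 1.78, 1.45 and 1.16 in NM-203 arrays, against 1.2, 0.97, 0.49 and 0.58 in water arrays (0.77 ± 0.22, adjusted p = 0.0115). Its lowest NM-203 array lay just under the highest water array, and against the other water control its change was 0.36 (adjusted p = 0.267). The changes of Srebf1 (0.08), Srebf2 (0.07) and Insig1 (-0.12) were not called. In the same arrays the 7 measured macrophage markers summed to 10.7 to 17.8, against 19.8 to 28.5 in water arrays, with no overlap. The water of Min-U-Sil 5, scanned in the same later session, had 14.4 to 21.4, which overlaps the NM-203 range. Against water 2 of the 7 were called higher and 1 lower, where 8125 of 32492 genes were called. Against the water of Min-U-Sil 5, 0 of the 7 were called, where 5061 genes were. Of the 10 fibroblast markers 4 were called lower against water (median change -0.40) and 1 against the water of Min-U-Sil 5 (-0.18). The part of these markers in the rises was not tested.

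At the highest dose, NM-203 5 µg/cm², 7 of 31 members were called, 2 higher and 5 lower, where 33.1% of all genes were called. Of 32492 genes 4549 were called higher and 6191 lower. With normexp background correction and quantile normalization the split was 1 member higher and 7 lower, and 4390 genes higher and 5803 lower. Tm7sf2, a sterol reductase that acts after lanosterol demethylation, fell 2.66-fold and Abca1, which exports cholesterol, fell 2.43-fold. The other 16 sterol enzymes had changes of -0.30 (Dhcr7) to 0.53 (Fdps) on the probes used. The second Ebp probe was called lower (-0.26, adjusted p over all probes 0.0175), while the one used was not called (-0.09). Tm7sf2 had -1.49, -1.47, -1.53 and -0.83 in NM-203 arrays, against 0.48, 0.21, -0.32 and -0.03 in water arrays (change -1.41 ± 0.20, adjusted p = 7.22e-07). All NM-203 arrays lay below all water arrays. Its second probe had a change of -0.99 (adjusted p over all probes 3.07e-05), and within slides 1 and 3 the change was -1.15 and -1.14. Slide 1 held 2 arrays of this NM-203 dose and 1 water array, and slide 3 held 1 of each. Fdps had 5.17, 4.90, 5.13 and 5.2 in NM-203 arrays, against 4.94, 4.72, 4.24 and 4.39 in water arrays (0.53 ± 0.18, adjusted p = 0.0257), with overlap. The Fdps call was lost under 7 of 19 alternatives, whose adjusted p ran from 0.0092 to 0.194.

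The fatty acid enzymes split at 5 µg/cm². Acss2, which makes cytosolic acetyl-CoA from acetate, had -1.26, -1.32, -1.27 and -0.80 in NM-203 arrays, against 0.07, -0.43, -0.72 and -0.46 in water arrays (-0.78 ± 0.18, adjusted p = 0.000785). Scd1, the sister desaturase of Scd2, had 0.32, 0.17, 0.22 and 0.53 in NM-203 arrays, against 1.11, 0.84, 0.57 and 0.47 in water arrays (-0.43 ± 0.15, adjusted p = 0.0204). Acss2 did not overlap between the groups and Scd1 did. The second Acss2 probe had a change of -0.43 (adjusted p over all probes 0.0946), and the Scd1 call was lost under 7 of 19 alternatives (adjusted p 0.00456 to 0.3). Fads2 went the other way, with 0.32, 0.43, 0.37 and 0.39 in NM-203 arrays, against -0.32, -0.18, -0.50 and -0.50 in water arrays (0.76 ± 0.15, adjusted p = 0.000136). Its groups stood apart, and within slides 1 and 3 its change was 0.89 and 0.93. The second Fads2 probe had a change of 0.38 (adjusted p over all probes 0.225). Acly, which makes cytosolic acetyl-CoA from citrate, had a change of -0.30 (adjusted p = 0.0631), Scd2 of -0.23 and Fasn of 0.30, none called. The median of the 9 enzymes was -0.07, but 0.03 with arrays scaled to their median and 0.02 with the slide in the fit, so its sign is not settled.

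Of the regulators Insig1 fell at 5 µg/cm², with -2.06, -2.13, -1.93 and -1.45 in NM-203 arrays, against -0.81, -0.97, -1.37 and -1.52 in water arrays (-0.72 ± 0.17, adjusted p = 0.00123). One water array lay within the NM-203 range, and the change within slides was -0.17 on slide 1 and -0.76 on slide 3. Srebf1 (-0.13) and Srebf2 (0.20) were not called. Abca1 had -1.46, -1.77, -2.0 and -1.34 in NM-203 arrays, against -0.44, -0.25, -0.34 and -0.42 in water arrays (-1.28 ± 0.20, adjusted p = 5.87e-06), with no overlap, and changes of -1.25 and -1.43 within slides 1 and 3. Stard4 had a change of 0.42 (adjusted p = 0.168), while its second probe had 0.76 (adjusted p over all probes 0.00567), so the probes of Stard4 disagree on the call. Tm7sf2, Acss2, Fads2, Insig1 and Abca1 kept their calls under all 19 alternatives. The second Abca1 probe, well above background on 12 arrays, had a change of -1.38 and was not called (adjusted p over all probes 0.0736). The fibroblast marker sum, given above, was lower in the same arrays, and its part in these changes was not tested.

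**Figure D3:**
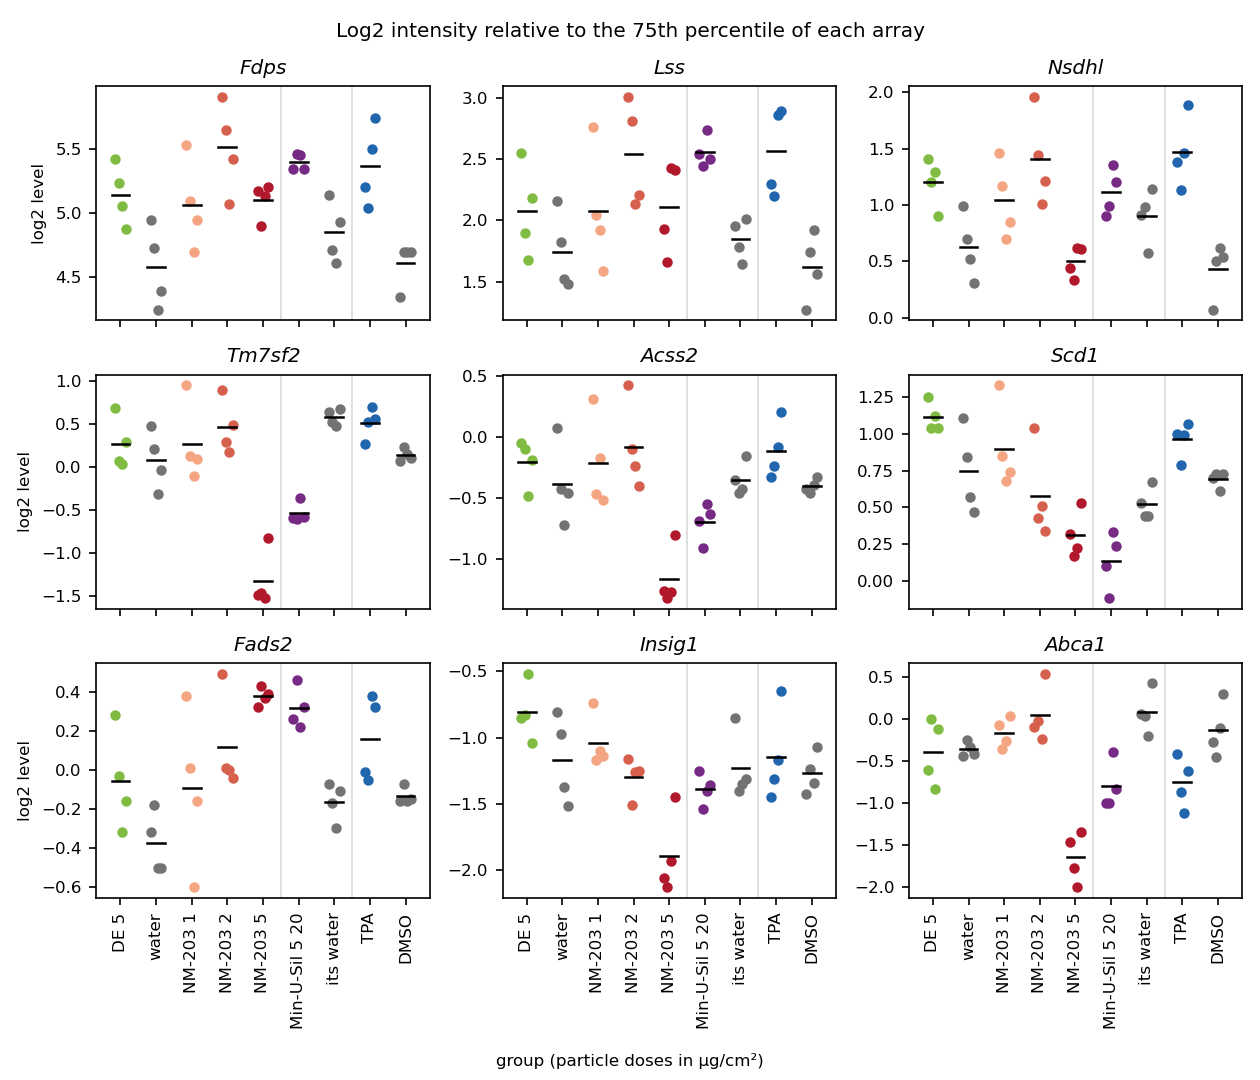
Log2 level (intensity relative to the array's 75th percentile) of 9 members on every array, in 9 groups of 4; points are arrays, black bars are group means, and vertical lines part the 3 control sets. Tm7sf2 lies between -1.53 and -0.83 at NM-203 5 µg/cm² and between -0.60 and -0.36 in Min-U-Sil 5, below the arrays of both water controls, while the Fdps mean of each treated group is above that of its control.

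The 2 higher doses of NM-203 were set against each other directly. At 5 µg/cm² 15 of 31 members were lower than at 2 µg/cm² and 0 were higher, where 32.7% of all genes were called and 21.1% were called lower. They were 9 sterol enzymes, 4 fatty acid enzymes, Insig1 and Abca1. The difference was -0.89 for Idi1 (adjusted p = 0.00289), -0.50 for Hmgcs1 (adjusted p = 0.00867), -0.63 for Msmo1 (adjusted p = 0.00876) and -1.79 for Tm7sf2 (adjusted p = 2.12e-08). For Fdps (-0.41, adjusted p = 0.0854) and Lss (-0.43, adjusted p = 0.179) it was not called. Of the 8 arrays 1 of the NM-203 5 µg/cm² group was scanned on the second day with the 2 µg/cm² arrays, and that array lay below all 4 of the 2 µg/cm² group for Idi1, Hmgcs1, Msmo1 and Tm7sf2. With arrays scaled to their median 5 members and 7863 of 32492 genes were called.

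DE, the natural amorphous silica, was compared with water at 5 µg/cm², the dose of the highest NM-203 group. With limma 0 of 31 members were called, where 1.01% of all genes were. An unadjusted p under 0.05 was found for 10 members and for 3418 of 32492 genes. Changes were positive for 17 of 17 sterol and 8 of 9 fatty acid enzymes, and the median change of all genes was -0.02. Mvd, mevalonate diphosphate decarboxylase, had 1.78, 0.85, 1.28 and 1.2 in DE arrays, against 1.28, 0.94, 0.31 and 0.30 in water arrays (0.57 ± 0.30, adjusted p = 0.518). Fdps had 5.42, 5.23, 5.05 and 4.87 in DE arrays, against 4.94, 4.72, 4.24 and 4.39 in water arrays (0.57 ± 0.18, adjusted p = 0.157). The groups overlapped for both. Nsdhl had 1.41, 1.2, 1.29 and 0.90 in DE arrays, against 0.99, 0.70, 0.52 and 0.31 in water arrays (0.57 ± 0.19, adjusted p = 0.197). Cyp51, the lanosterol demethylase, had 5.19, 4.83, 4.64 and 4.76 in DE arrays, against 4.77, 4.45, 4.14 and 3.82 in water arrays (0.56 ± 0.21, adjusted p = 0.274). These groups overlapped as well. Without replicate 1 of water 1 member was called. The sterol median was 0.74, 0.08 and 0.47 within slides 1, 2 and 3, and the fatty acid median 0.41, -0.01 and 0.26. These slides held 1, 1 and 2 DE arrays and 1, 2 and 1 water arrays.

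Set directly against DE at the same dose, NM-203 at 5 µg/cm² had 10 members lower and 1 higher of 31, where 29.2% of all genes were called. Tm7sf2 was 3.03-fold lower (-1.60 ± 0.20, adjusted p = 1.22e-07), Abca1 2.38-fold lower (-1.25, adjusted p = 1.07e-05) and Insig1 2.12-fold lower (-1.08, adjusted p = 9.87e-06). Among the sterol enzymes Nsdhl (-0.70, adjusted p = 0.00577) and Dhcr7 (-0.76, adjusted p = 0.000323) were also lower. Of the 9 fatty acid enzymes 5 were lower, Acss2 (-0.96), Scd1 (-0.80), Fads1 (-0.53), Scd2 (-0.38) and Acly (-0.36), and Fads2 was higher (0.44, adjusted p = 0.025). On the second Fads2 probe the change against the shared water arrays was 0.38 with NM-203 and 0.55 with DE, neither called, so the Fads2 probes disagree in the direction of this difference. With arrays scaled to their median 7 members and 7158 of 32492 genes were called.

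Min-U-Sil 5, crystalline silica at 20 µg/cm², was compared with its own water control. Of 31 members 7 were called, 5 higher and 2 lower, where 25.6% of all genes were called. Fdps had 5.34, 5.46, 5.45 and 5.34 in Min-U-Sil 5 arrays, against 5.14, 4.71, 4.61 and 4.93 in its water arrays (0.55 ± 0.18, adjusted p = 0.0251). Lss had 2.54, 2.44, 2.74 and 2.50 in Min-U-Sil 5 arrays, against 1.95, 1.78, 1.64 and 2.01 in its water arrays (0.71 ± 0.24, adjusted p = 0.0271). Msmo1 had 4.67, 4.70, 4.82 and 4.64 in Min-U-Sil 5 arrays, against 4.24, 4.06, 3.97 and 4.30 in its water arrays (0.57 ± 0.19, adjusted p = 0.0228). These 3 sterol enzymes rose with no overlap between the groups, but another Lss probe was not called (0.12, adjusted p over all probes 0.748). Tm7sf2 fell, with -0.59, -0.60, -0.36 and -0.58 in Min-U-Sil 5 arrays, against 0.64, 0.52, 0.48 and 0.68 in its water arrays, a 2.16-fold difference (-1.11 ± 0.20, adjusted p = 4.95e-05). Its second probe had a change of -0.87 (adjusted p over all probes 0.000275).

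The other calls with Min-U-Sil 5 lay in different classes. Fads2 had 0.26, 0.46, 0.22 and 0.32 in Min-U-Sil 5 arrays, against -0.07, -0.17, -0.30 and -0.11 in its water arrays (0.48 ± 0.15, adjusted p = 0.0173). Srebf2, which encodes the main transcription factor of the sterol enzymes, had 0.25, 0.68, -0.04 and 0.16 in Min-U-Sil 5 arrays, against -0.20, -0.52, -0.33 and -0.28 in its water arrays (0.59 ± 0.18, adjusted p = 0.0133). Abca1 had -1.0, -1.0, -0.39 and -0.83 in Min-U-Sil 5 arrays, against 0.05, 0.03, -0.20 and 0.42 in its water arrays (-0.88 ± 0.20, adjusted p = 0.00114). None of these groups overlapped. The second Fads2 probe was not called (0.49, adjusted p over all probes 0.116), while the second Stard4 probe was (0.81, 0.00473) and the one used was not (0.30, adjusted p = 0.391). Slides 4 and 5 held arrays of both groups, 3 of Min-U-Sil 5 and 2 of its water on slide 4, and 1 and 2 on slide 5. Within them the median sterol change was 0.42 and 0.18, the fatty acid median 0.23 and 0.06, the Tm7sf2 change -1.09 and -1.02, and the Abca1 change -0.86 and -0.63. Leaving out slide 4 leaves 1 Min-U-Sil 5 array, and the changes are then those given for slide 5. With arrays scaled to their median the 2 falls were called and no rise was. Without water replicate 2 4 members were called, 3 without water replicate 3 and 4 without Min-U-Sil 5 replicate 2. Of 32492 genes 7880, 7739 and 7369 were called with these arrays left out, in that order. Fabp4, an adipocyte marker that other cells also express, was called higher in the same arrays (adjusted p = 0.00193), with its probe well above background on 4 Min-U-Sil 5 arrays and 1 water array. The other 4 measured adipocyte markers were not called, and the part of such cells was not tested.

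TPA was compared with DMSO. Of 31 members 7 rose and 1 fell, where 11.7% of all genes were called; the 7 were all sterol enzymes, where 4.89% of all genes rose, and all 17 sterol and all 9 fatty acid enzymes had positive changes. Mvd had 1.2, 1.32, 1.75 and 1.92 in TPA arrays, against 0.59, 0.47, 0.86 and 0.63 in DMSO arrays, a 1.88-fold rise (0.91 ± 0.30, adjusted p = 0.0407). Idi1 had 2.11, 1.74, 2.36 and 2.74 in TPA arrays, against 1.19, 1.60, 1.53 and 1.76 in DMSO arrays (0.72 ± 0.23, adjusted p = 0.0361). Fdps had 5.2, 5.04, 5.50 and 5.74 in TPA arrays, against 4.34, 4.69, 4.69 and 4.69 in DMSO arrays, a 1.70-fold rise (0.77 ± 0.18, adjusted p = 0.00441). Of these only Idi1 overlapped. Sqle, squalene epoxidase, had 3.44, 3.47, 3.96 and 4.00 in TPA arrays, against 2.94, 3.14, 3.14 and 3.43 in DMSO arrays (0.55 ± 0.17, adjusted p = 0.0355). Lss had 2.30, 2.20, 2.86 and 2.89 in TPA arrays, against 1.27, 1.74, 1.92 and 1.56 in DMSO arrays, a 1.92-fold rise (0.94 ± 0.24, adjusted p = 0.00762). The groups of both stood apart, Sqle by a narrow margin.

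The late sterol enzymes Msmo1 and Nsdhl rose with TPA too. Msmo1 had 4.02, 4.14, 4.47 and 4.77 in TPA arrays, against 3.46, 3.73, 3.86 and 3.78 in DMSO arrays (0.64 ± 0.19, adjusted p = 0.0195). Nsdhl had 1.38, 1.13, 1.46 and 1.89 in TPA arrays, against 0.07, 0.50, 0.62 and 0.54 in DMSO arrays, a 2.05-fold rise (1.03 ± 0.19, adjusted p = 0.000349). Neither pair of groups overlapped. Abca1 fell, with -0.42, -0.87, -1.12 and -0.62 in TPA arrays, against -0.28, -0.45, -0.11 and 0.29 in DMSO arrays (-0.62 ± 0.20, adjusted p = 0.0421), with overlap, and its call was lost under 12 of 19 alternatives (adjusted p 0.015 to 0.207). Tm7sf2 had a change of 0.38 (adjusted p = 0.247). Of the uncalled fatty acid enzymes the largest changes were those of Elovl6, an elongase (0.34), and Fads1, a desaturase (0.33), on the probes used. The second probe of Acly (0.61, adjusted p over all probes 0.0159) and that of Mvk (0.63, 0.0292) were called higher, so the probes of both genes disagree on the call. Second probes of the called Msmo1 (0.76, 0.0572) and Abca1 (-0.97, 0.346) were not called. Of the other Lss probes 1 was not called (0.60, 0.0838) and 1 was (0.85, 0.00949). The calls of Mvd, Idi1 and Sqle were each lost under 8 of 19 alternatives, and that of Msmo1 under 5. Of the 2 Stard4 probes the one used had a change of 0.62 (adjusted p = 0.0712) and the other 1.11 (adjusted p over all probes 0.000462). On slide 1, the slide that held arrays of both groups (2 of TPA and 1 of DMSO), the sterol median was 0.45 and the fatty acid median 0.23. With arrays scaled to their median 1 member, Nsdhl, was called higher and 0 lower, with the deposited values 6 higher and 0 lower, with no filter on dim probes 4, with the slide in the fit 13 and with weights per array 14. Without DMSO replicate 1, TPA replicate 3 or TPA replicate 4 the count was 3, and without DMSO replicate 2 or 3 it was 5. Fabp4 was at least 2.70-fold higher in TPA arrays (adjusted p = 1.1e-05), a bound because its probe was well above background on 0 of 4 DMSO arrays. The fibroblast marker sum was 652 to 726 in TPA arrays, against 773 to 836 in DMSO arrays. The other 4 measured adipocyte markers were not called, and their part was not tested.

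The difference between the effect of NM-203 at 5 µg/cm² and that of TPA, each against its own control, was tested in the same fit. It was called for 6 of 31 members, all lower with NM-203, where 14.8% of all genes were called. It was -1.79 ± 0.28 for Tm7sf2 (adjusted p = 2.8e-05), -1.16 ± 0.27 for Nsdhl (adjusted p = 0.00325) and -1.07 ± 0.25 for Acss2 (adjusted p = 0.00324). It was -0.85 for Insig1 (adjusted p = 0.016), -0.70 for Scd1 (adjusted p = 0.0176) and -0.58 for Acly (adjusted p = 0.0218). With arrays scaled to their median 1 member and 1983 of 32492 genes were called. For Abca1 the effects were -1.28 with NM-203 and -0.62 with TPA, and their difference was not called (adjusted p = 0.135). Between the effects of Min-U-Sil 5 and NM-203 at 5 µg/cm² no member differed by the limma test, where 0.2% of all genes did, and 1 member, Insig1, had an unadjusted p under 0.05. Of 32492 genes 2478 had such a p. For Tm7sf2 that difference was 0.30 ± 0.28 and for Abca1 0.40 ± 0.29. The doses of these particles differ.

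Sterol and fatty acid enzymes were also compared array by array. Each array's mean over the members of a class, relative to the mean of the class in water, was 0.34 to 0.99 for sterol and 0.14 to 0.67 for fatty acid enzymes at NM-203 2 µg/cm². At NM-203 5 µg/cm² it was -0.11 to 0.23 and -0.16 to 0.05 in the same order, inside the ranges of the water arrays (-0.27 to 0.31 and -0.18 to 0.23). At NM-203 1 µg/cm² it was -0.07 to 0.71 and 0.0 to 0.48, and with DE 0.16 to 0.61 and 0.02 to 0.35. In Min-U-Sil 5 arrays it was 0.40 to 0.49 for sterol and 0.07 to 0.26 for fatty acid enzymes, against 0.02 to 0.37 and -0.06 to 0.24 in its water arrays. In TPA arrays it was 0.26 to 0.78 for sterol and 0.08 to 0.46 for fatty acid enzymes, against -0.20 to 0.01 and -0.04 to 0.10 in DMSO arrays. The sterol mean was above the fatty acid mean on 4 of 4 arrays in both higher NM-203 doses, Min-U-Sil 5 and TPA. In NM-203 1 µg/cm² and DE it was above on 3 of 4, in the water of Min-U-Sil 5 on 4 of 4 and in DMSO on 0 of 4. The water of Min-U-Sil 5 thus sat with the treated groups in this measure. The count in the other water, 2 of 4, is no result, because both classes were centred on those arrays and could not differ on average there. Replicate 1 of the 2 lower NM-203 doses was the highest array of its group in both classes. The array means of the water group ran from -0.27 to 0.31 for sterol enzymes, about the size of the median changes above.

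**Figure D4:**
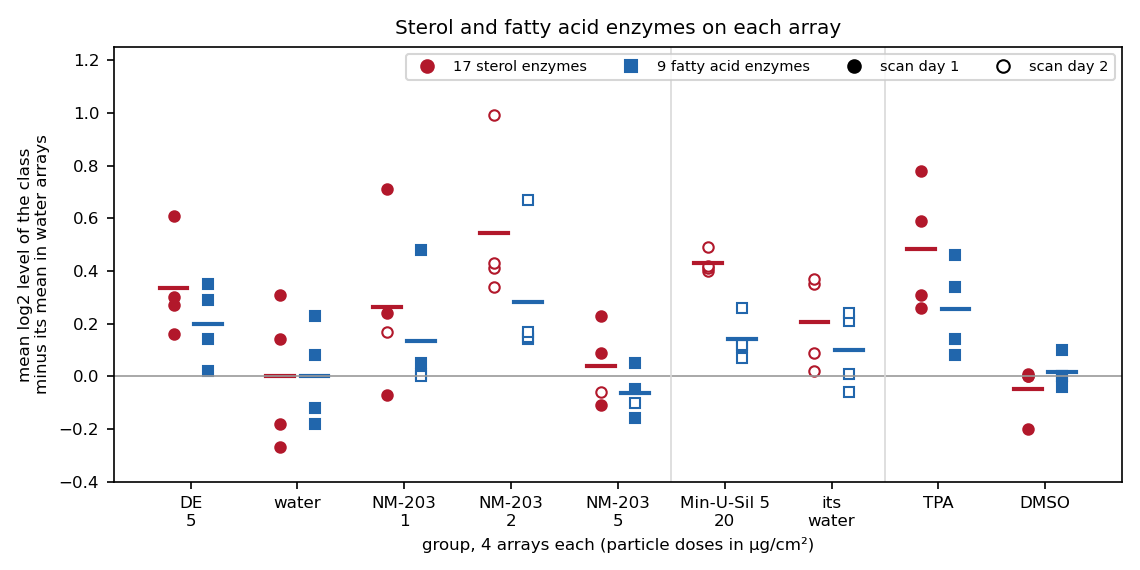
Mean log2 level of the 17 sterol enzymes (red circles) and 9 fatty acid enzymes (blue squares) on each array, minus the class mean in water arrays, in 9 groups of 4; bars are group means and open symbols are arrays of the second scan day. The red bar lies above the blue bar in every treated group, and the TPA arrays lie above the DMSO arrays for sterol enzymes (0.26 to 0.78 against -0.20 to 0.01).

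The controls give the size of differences without a test compound. Between DMSO and water 0 members were called by limma, where 0.0% of all genes were (673 genes had an unadjusted p under 0.05, none of them a member), and the sterol median was -0.05. Between the water of Min-U-Sil 5 and the other water, on different scan days, 2 of 31 members were called higher, Idi1 (0.63 ± 0.23, adjusted p = 0.0429) and Fasn (0.42 ± 0.13, adjusted p = 0.0202), where 24.5% of all genes were called. The sterol median was 0.27 and the median of all genes 0.22. With arrays scaled to their median, which moved the median of all genes to -0.10, the sterol median was -0.05, and 0 members were called higher and 1 lower. Of 32492 genes 2219 were then called higher and 4123 lower. Without water replicate 3 or replicates 1 or 4 of the Min-U-Sil 5 water 0 members were called, while 7500, 7621 and 9449 genes were. Without water replicate 4 or replicate 2 of the Min-U-Sil 5 water 1 member was called, while 6384 and 4555 genes were.

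Genes of neighbouring lipid pathways were read from 4 lists. In the isoprenoid branch, which uses farnesyl diphosphate for prenyl groups, dolichol and ubiquinone, 8 of 11 genes rose at NM-203 2 µg/cm², 6 at NM-203 5 µg/cm², 3 with Min-U-Sil 5 and 2 with TPA, and 1 fell, with TPA. Of all genes 25%, 33.1%, 25.6% and 11.7% were called in either direction in these comparisons. Of 32492 genes 5248, 4549, 3774 and 1589 were called higher in the same order. The median changes were 0.40, 0.30, 0.26 and 0.03. Pdss1, a subunit of the synthase that makes the ubiquinone side chain, rose 1.47-fold at NM-203 2 µg/cm², 3.56-fold at 5 µg/cm² (adjusted p = 1.78e-13), 2.70-fold with Min-U-Sil 5 (adjusted p = 7.01e-11) and 1.79-fold with TPA (adjusted p = 2.31e-06). Nus1, a subunit of the dolichol synthase, rose 1.95-fold at NM-203 5 µg/cm² (adjusted p = 2.72e-10) and 1.64-fold with Min-U-Sil 5 (adjusted p = 1.6e-07). Fntb, the beta subunit of farnesyltransferase, the enzyme that lipidates Ras proteins, rose 1.79-fold and 1.75-fold in the same groups. Zmpste24, a protease of prenylated proteins, rose 1.65-fold at NM-203 2 µg/cm² (adjusted p = 4.77e-06), and Ggps1, the geranylgeranyl diphosphate synthase, fell 1.31-fold with TPA (adjusted p = 0.0098). Against the water of Min-U-Sil 5, 3 of the 11 genes were called higher at NM-203 2 µg/cm², and with scan day in the fit 2 were.

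Of 23 measured genes of sterol sensing, transport and esterification, 4 rose and 1 fell at NM-203 2 µg/cm², 2 rose and 6 fell at 5 µg/cm², 1 rose and 7 fell with Min-U-Sil 5, and 1 rose and 1 fell with TPA. That is 5, 8, 8 and 2 of 23 called, where 25%, 33.1%, 25.6% and 11.7% of all genes were. At NM-203 2 µg/cm² 1 rose and 1 fell against the water of Min-U-Sil 5, and 1 rose with scan day in the fit. Lrp1, an endocytic receptor of lipoprotein remnants, fell 3.21-fold at NM-203 5 µg/cm² (adjusted p = 3.38e-06) and 2.26-fold with Min-U-Sil 5 (adjusted p = 0.000638). Mylip, a ubiquitin ligase induced by LXR that marks lipoprotein receptors for decay, fell 2.41-fold (adjusted p = 1.97e-09) and 1.76-fold (adjusted p = 8.75e-06) in these groups. Lipa, the lysosomal acid lipase, fell 1.67-fold and 1.40-fold, and Soat1, which esterifies cholesterol, rose 1.68-fold at NM-203 5 µg/cm² (adjusted p = 6.01e-07). Scarb1, a lipoprotein receptor that takes up cholesteryl esters, rose 1.62-fold at NM-203 2 µg/cm² and 1.55-fold with TPA (adjusted p = 0.00235). Scap, the escort of the SREBP precursors, rose 1.35-fold at NM-203 2 µg/cm² (adjusted p = 0.00295).

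Of 20 measured fatty acid oxidation genes 9 fell and 1 rose at NM-203 5 µg/cm², 8 fell and 0 rose with Min-U-Sil 5, and 4 fell and 1 rose with TPA, with median changes of -0.26, -0.24 and -0.10. The shares of all genes called in either direction were 33.1%, 25.6% and 11.7%. Acadm, an acyl-CoA dehydrogenase, fell 3.00-fold at NM-203 5 µg/cm² (adjusted p = 1.27e-11) and 1.91-fold with Min-U-Sil 5 (adjusted p = 5.41e-07), and Ppara, the nuclear receptor that induces this pathway, fell 2.10-fold and 1.83-fold. Acaa2, a mitochondrial thiolase of the pathway, fell 1.55-fold at NM-203 5 µg/cm² (adjusted p = 0.000109), 1.41-fold with Min-U-Sil 5 (adjusted p = 0.00222) and 1.44-fold with TPA (adjusted p = 0.00371). With TPA Pdk4, a kinase that restrains pyruvate use, rose 1.64-fold (adjusted p = 7.02e-06).

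Of 24 measured genes of fatty acid elongation, activation and glyceride synthesis, 6 rose and 4 fell at NM-203 2 µg/cm², 7 rose and 4 fell at 5 µg/cm², 6 rose and 4 fell with Min-U-Sil 5, 3 rose and 5 fell with TPA, and 1 rose with DE. Of all genes 25%, 33.1%, 25.6%, 11.7% and 1.01% were called in these comparisons. Against the water of Min-U-Sil 5, 6 rose and 0 fell at NM-203 2 µg/cm², and with scan day in the fit 2 rose and 1 fell. Acsl5, an acyl-CoA synthetase, rose 1.95-fold and 2.05-fold at NM-203 2 and 5 µg/cm², 1.42-fold with DE (adjusted p = 0.0293), 1.77-fold with Min-U-Sil 5 and 1.76-fold with TPA. It was the 1 gene of the 4 lists called with DE. Hacd2, a dehydratase of the elongation cycle, fell 2.08-fold at NM-203 5 µg/cm² (adjusted p = 1.44e-08), 1.99-fold with Min-U-Sil 5 and 2.13-fold with TPA. Lpin1, a phosphatidate phosphatase, fell 2.61-fold at NM-203 5 µg/cm² (adjusted p = 2.59e-08) and 1.56-fold with Min-U-Sil 5. Acsl3 rose 2.72-fold at NM-203 2 µg/cm² (adjusted p = 0.000595) and Me1, the malic enzyme that supplies NADPH, rose 1.68-fold there and 1.57-fold with Min-U-Sil 5. At NM-203 1 µg/cm² 0 genes of the 4 lists were called by limma, where 0.0862% of all genes were.

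**Figure D5:**
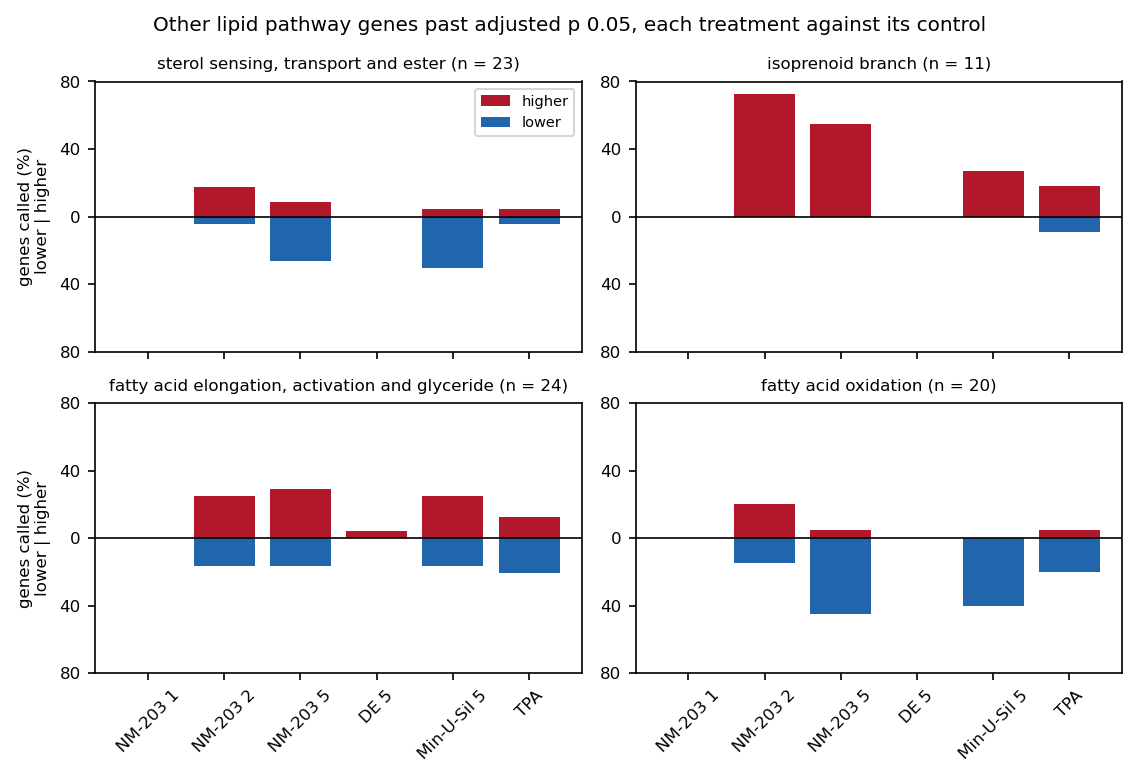
Share of the genes of 4 neighbouring lipid lists with an adjusted p under 0.05, higher (red, upward) or lower (blue, downward), in 6 treatments each against its control; bars start at 0. The isoprenoid branch has 8 of 11 genes higher at NM-203 2 µg/cm² and none lower, and fatty acid oxidation has 9 of 20 lower at NM-203 5 µg/cm² and 8 of 20 lower with Min-U-Sil 5.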

How the data were processed

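RNA of Bhas 42 cells was measured on 36 one-colour Agilent arrays, 4 in each of 9 groups taken from the labels. Per the file headers, the deposited scanner files were made with Agilent Feature Extraction 11.0.1.1, which gave each spot a background-corrected and processed intensity and a flag for signal well above background. The deposited value table of the series holds log2 values that follow the scanner values of each array, as tested on the files. In it the columns of Min-U-Sil 5 replicates 1, 2 and 3 matched the scanner files of other replicates of that group, and the other 33 columns matched their own. The group is unaffected, and this table was used only as an alternative.

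Each processed intensity was put on the log2 scale and the array's 75th percentile was subtracted. Control spots and outlier spots were left out, repeated spots were averaged, and the brightest probe stood for a gene. Probes were kept if well above background on 3 of 4 arrays of a group. Probe accessions were matched to RefSeq symbols for 32994 of 56605 probes, and the other names are those of the array design. One limma 3.58.1 fit (lmFit and eBayes, R 4.3.3) over all 9 groups gave the tests, with Benjamini-Hochberg adjustment over 32492 gene names, and was tested on simulated data. Tables and figures used the R package data.table (version 1.17.8), Python 3.11.15, pandas 2.3.3, numpy 2.4.6 and matplotlib 3.10.9.

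The members, the gene lists and the tests were chosen with earlier results of these data known. In each comparison with a control, values per array are given for the called members with the largest absolute change, up to 8 sterol and 6 fatty acid enzymes, and for all called regulators and exporters. With fewer than 4 called members the 4 largest changes are given. From each other list up to 4 called genes per comparison are eligible. One gene that this rule names is not reported here. Alternatives changed the background correction, scaling, filter, probe rule, value table, blocks for slide, scan day and replicate number, array weights, arrays in the fit and each replicate. Same-numbered arrays correlated at -0.602 to 0.334 in their deviations from group means, so the replicate numbers were not taken as pairs. The number of arrays limits the precision. All columns used are tied to a sample (0 were not).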

Additional observations from a re-analysis of the deposited data

Results flagged for a closer look

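Of 76 groups of 4 arrays checked for the named members, 7 held an array whose gap to its nearest neighbour exceeded Dixon's 95% critical value as a share of the group's range. Chance alone gives such a gap in about 1 in 20 groups. Stard4 was at 1.81 in replicate 1 of NM-203 1 µg/cm², with the nearest array at 1.07. Replicate 1 of NM-203 2 µg/cm² stood above the rest for Hmgcs1 (4.86, nearest 4.31) and Fads2 (0.49, nearest 0.01). Replicate 4 of NM-203 5 µg/cm² stood above the rest for Tm7sf2 (-0.83, nearest -1.47) and Acss2 (-0.80, nearest -1.26), which places it nearest to the water arrays for both genes. Tm7sf2 was at -0.36 in Min-U-Sil 5 replicate 3, with the nearest array at -0.58. Fdps was at 4.34 in DMSO replicate 1, with the other 3 DMSO arrays at 4.69.

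For 6 of 31 members the effect of NM-203 at 5 µg/cm² differed from that of TPA by a limma test of the difference. Of all genes 14.8% did. The difference was -1.79 for Tm7sf2, -1.16 for Nsdhl, -0.58 for Acly, -1.07 for Acss2, -0.70 for Scd1 and -0.85 for Insig1, lower with NM-203 in each case. These 6 genes take in 2 sterol enzymes, 3 fatty acid enzymes and a regulator. With arrays scaled to their median 1 member was called, and 1983 of 32492 genes were.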

How the results depend on the processing

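The count of called members depended on the scaling and on the control arrays. The count over all 32492 genes moved with the setting as well. At NM-203 2 µg/cm² it went from 8125 to 5330 with median scaling and 2912 with only the compared groups in the fit. With TPA it went from 3792 to 1747 with median scaling, 3156 with slide as a block and 6445 with array weights. With Min-U-Sil 5 it went from 8303 to 5704 with median scaling and 11546 with array weights. At NM-203 2 µg/cm² the 16 calls became 10 with normexp and quantile normalization, 4 with median scaling, 9 with slide as a block, 4 with scan day as a block, 1 with only the compared groups in the fit and 2 against the water of Min-U-Sil 5, and 9 to 17 leaving out 1 replicate (9 without NM-203 replicate 1). DE went from 0 to 1 with array weights and 0 to 1 leaving out a replicate. Min-U-Sil 5 went from 7 to 2 with median scaling and 15 with array weights, and 3 to 7 leaving out a replicate. Leaving out slide 4, an alternative chosen after seeing the data, left 1 Min-U-Sil 5 array, so no count is given for it. TPA went from 8 to 1 with median scaling, 4 with no filter, 13 with slide as a block and 14 with array weights, and 3 to 10 leaving out a replicate. With median scaling the counts were 7 for NM-203 against DE (11), 5 for NM-203 5 against 2 µg/cm² (15) and 1 for the difference of the NM-203 and TPA effects (6); leaving out a replicate gave 9 to 12, 13 to 17 and 5 to 6. Between the water controls the 2 calls became 1 with median scaling, 0 with slide as a block and 1 without slide 4, and 0 to 3 leaving out a replicate. Over all genes the counts between these controls were 6342 with median scaling, 78 with slide as a block and 2678 without slide 4. NM-203 5 µg/cm² gave 5 to 7 leaving out a replicate. For NM-203 1 µg/cm², the Min-U-Sil 5 and NM-203 difference and DMSO against water it gave 0 to 0. Median scaling put the median change of all genes at 0.11 for NM-203 5 µg/cm² against water (0.01 otherwise) and at -0.10 for the water controls (0.22 otherwise).

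With the replicate number as a block, the members called numbered 15 at NM-203 2 µg/cm², 7 at 5 µg/cm², 8 with Min-U-Sil 5, 9 with TPA and 4 between the water controls (2 without the block). As some same-number correlations were below 0, not every array correlated best with its own number. Over 42 named gene results and 829 alternatives, 696 kept direction and side of the threshold, 133 kept direction and lost the call, and 0 reversed. The kept results include those of the 4 members named at NM-203 1 µg/cm² and the 4 named with DE. These had no call to lose, so the kept count overstates how stable the calls were. The causes were not tested.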
